A study of Homo sapiens with 22 samples.

Results

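Rescue1 and Rescue2 are separate SETD2-re-expressing cell clones, and the 4 RNA-seq libraries that carry these names in the labels (2 libraries of each clone) were compared with each other. They were chosen by label alone, from 22 libraries in 11 groups of 2. The series used RPTEC, a human renal proximal tubule epithelial line immortalized with telomerase, in which SETD2 was cut with a guide to its coding sequence to give the knockout clones KO1 and KO2. KO cells were then transduced with a lentivirus carrying full-length human SETD2 with a FLAG tag, kept in 5 µg/mL blasticidin and grown from single colonies, so each rescue clone is 1 clone, and any difference between them is also a difference between 2 colonies. Neither the labels nor the methods name the knockout clone from which Rescue1 and Rescue2 came, so KO2 and KO1 are set beside them as knockout clones and not as a known parent. A supplementary table of the study heads the columns of the knockout clones the other way round from the deposited table, so which clone the study calls KO1 is unsure, and the names here are those of the library labels. Both rescue clones grew in regular medium with 10% serum, so medium does not separate them. The groups set beside them were KO2, KO1 and wild type (WT), all in 2% serum, WT treated with 10 ng/mL TGFβ for 72 h in 2% serum, and the eGFP, SOX2, OCT2 and PRRX1 lines, which are bulk WT cells transduced with an eGFP control vector or with 1 of these transcription factors and grown in 10% serum. All groups share the telomerase transgene and the medium's 250 µg/mL G418. Nothing in the labels says whether the 2 libraries of a clone came from separate cultures. The p-values measure only the spread between libraries of the same group, pooled over all 22 libraries, which may be technical.

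SETD2 is the methyltransferase that places trimethylation on lysine 36 of histone H3 along transcribed gene bodies, a mark tied to faithful splicing and to the silencing of start sites inside genes. The gene is recurrently lost in clear cell renal carcinoma. Cells grown from single colonies of the same stock can keep stable differences in gene activity, because each colony starts from a single founder and a lentivirus lands at different genome positions in each.

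Levels are given as normalized counts, which were back-calculated from the deposited log2 values, and differences as log2 of (normalized count + 1), Rescue1 minus Rescue2. The 4 libraries summed to 12093340 and 12060889 normalized counts in Rescue1 and to 11819235 and 11674491 in Rescue2. The smallest steps between values put their depth at about 7500000 and 10400000 reads in Rescue1 and 12800000 and 14000000 in Rescue2, so both Rescue1 libraries were shallower, and 14709 and 15080 genes were above 0 in them against 15419 and 15551 in Rescue2. Part of the table is unsteady: HPRT1, a gene that every cell uses, was listed at 0 in 6 of the 22 libraries, 1 of them a Rescue1 library. EEF2, a translation factor of every cell, was at 68.2 and 5.01 in Rescue1 and between 3.41 and 2015 over the 22 libraries. A value of 0 is therefore given as listed at 0, without a fold, and a low value above 0 may be as unsteady.

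SETD2 RNA did not differ beyond the spread between libraries. The gene (chromosome 3, 47016428 to 47164113, minus strand, GRCh38) stood at 10240 and 10369 normalized counts in Rescue1 and at 10445 and 9764 in Rescue2. The ranges overlapped, and the difference was 0.03 on the log2 scale (SE 0.07, 95% interval -0.12 to 0.18, limma adjusted p = 0.967). KO2 held 1050 and 1052, WT held 1852 and 2061, and the eGFP line held 3128 and 2947. These values do not separate the transgene's transcripts from those of the cut gene. The 2 libraries labelled KO2_Rescue, in 2% serum, listed SETD2 below KO2, and they enter here only through the shared estimate of spread and the range over the other libraries.

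Both clones carried the RNA of kidney epithelium. PAX8, a renal lineage factor, was at 4409 and 3953 in Rescue1 and at 4592 and 4548 in Rescue2, and KRT8, a keratin of simple epithelia, was at 24336 and 25190 against 22685 and 22164. Of 19 markers of renal epithelium and proximal tubule, 12 reached a mean of 10 in Rescue1 and 14 in Rescue2, and their sums were 46790 and 48018 against 43837 and 43324. Most of each sum came from KRT8 and KRT19 (14100 and 14665 against 13362 and 12831), keratins that are not particular to the kidney. HNF4A and LRP2, defining genes of the mature tubule, were listed at 0 in all 4 libraries. CDH1, the epithelial cadherin, was listed at 0 in 3 of the 4. The 8 fibroblast markers summed to 1536 and 1398 in Rescue1 and to 830 and 891 in Rescue2, with COL1A1 the most abundant of them in Rescue1 (839 and 744 against 299 and 352, adjusted p = 0.711). DCN (611 and 578 against 363 and 398), PDGFRA and PDGFRB also had higher means in Rescue1. LUM (13.3 and 0 against 118 and 88.1), COL1A2 and THY1 had lower means in Rescue1. None of these passed the adjusted p. COL3A1 was listed at 0 throughout. The 6 endothelial markers summed to 90.2 and 138 against 8.77 and 46.2, with PECAM1 listed at 0 in all 4 libraries and CDH5 the most abundant (68.7 and 83.8 against 5.75 and 23.6), and the 5 immune markers summed to at most 27.0 in any of the 4, with CD3E listed at 0. Whether other cells contributed to any difference below was not tested. In these bulk libraries, fewer cells with a transcript and less RNA per cell cannot be told apart.

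The clones were close to each other. The absolute log2 difference between 2 libraries was taken for each of 8276 genes whose mean level reached 100, and its median was 0.171 between the 2 Rescue1 libraries and 0.147 between the 2 Rescue2 libraries, and 0.188 to 0.208 in the 4 pairs that cross the clones. Every crossing pair was farther apart than either pair within a clone, by a small amount. Each clone was much farther from KO2, at 0.475 to 0.494 for Rescue1 and 0.468 to 0.482 for Rescue2, which differ from KO2 in serum and in SETD2 alike.

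**Figure D1:**
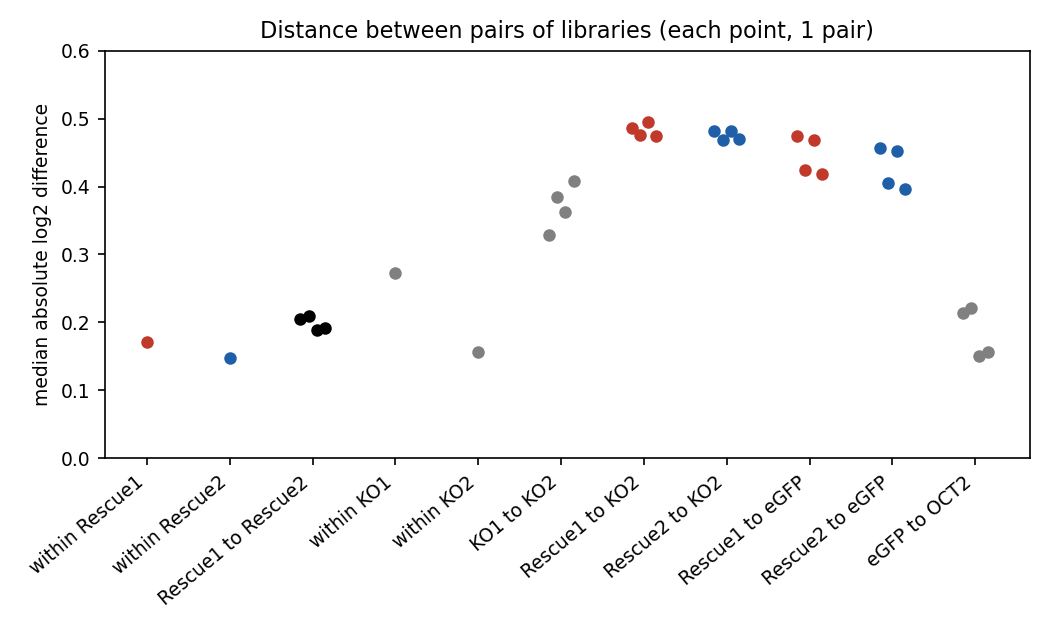
Median absolute log2 difference between 2 libraries over 8276 genes (y axis), with 1 point per pair of libraries and the kinds of pair along the x axis. The 4 points from Rescue1 to Rescue2 (0.188 to 0.208) sit just above the points within each clone (0.171 and 0.147) and below those from either clone to KO2.

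Of 14585 genes tested, 145 (0.994%) were called between the clones, at an adjusted p under 0.05 in limma and a log2 difference over 1 in size. Rescue1 was higher in 84 (0.576%) and Rescue2 in 61 (0.418%). The larger number in Rescue1 was not stable: without the first Rescue1 library 64 genes were higher in Rescue1 and 71 in Rescue2, and without the second 59 and 87. Leaving out the fold requirement gave 222. An unadjusted p under 0.05 was found in 1531 genes (10.5%). The counts for gene lists below are to be read against these shares. For scale, the same test called 1016 genes (6.97%) between the 2 knockout clones KO1 and KO2, and 3 (0.0206%), 5 (0.0343%) and 6 (0.0411%) between eGFP and the SOX2, OCT2 and PRRX1 lines, which are selected pools and not colonies. Of the 145, 79 had a mean of at least 100 normalized counts in the higher clone, and 10 had a mean of at least 1000 over the 4 libraries (0.433% of 2312 such genes). The median size of a called difference was 2.42 on the log2 scale, and 59 exceeded 3. In 13 of the genes higher in Rescue1 both Rescue2 libraries were listed at 0, and in 14 of those higher in Rescue2 both Rescue1 libraries were. The called genes were 87.6% protein-coding, against 89.2% of all genes tested. The calls lean on the spread of all 22 libraries, to which a group with a gene listed at 0 in both libraries adds none. A fit of the 4 rescue libraries alone called 1 gene, and the test on the deposited log2 values also called 1 past the same fold. On the deposited scale, with no fold asked for, 43 of the 50 named called genes kept an adjusted p under 0.05.

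**Figure D2:**
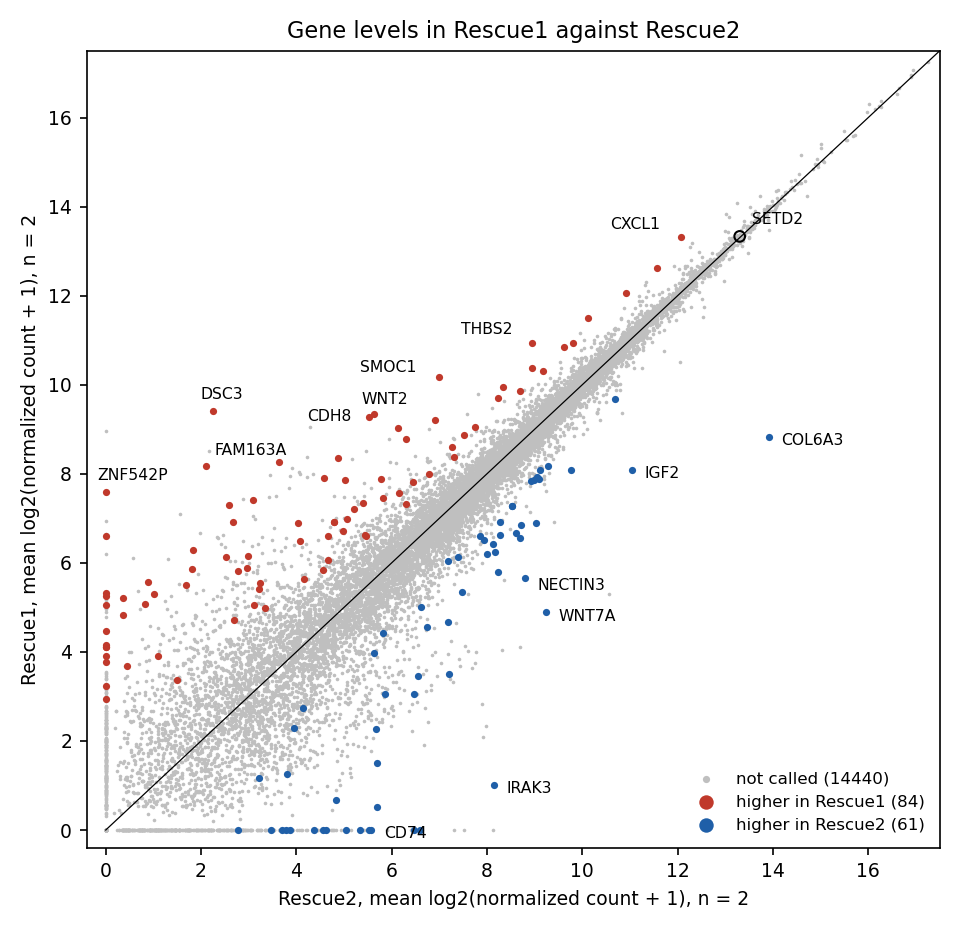
Mean log2(normalized count + 1) of each tested gene in Rescue2 (x axis) and in Rescue1 (y axis), n = 2 libraries each, with the diagonal as a line. The 84 genes called higher in Rescue1 and the 61 called higher in Rescue2 lie off the diagonal at all levels, COL6A3 farthest among the abundant genes, and SETD2 (ringed) lies on it.

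CXCL1, CXCL8, IL1A and CCL20, 4 of 23 tested cytokines and chemokines, were higher in Rescue1. CXCL1, a neutrophil-attracting chemokine, was at 10787 and 9647 normalized counts in Rescue1 and at 4237 and 4362 in Rescue2. Both Rescue1 libraries lay above both Rescue2 libraries, a 2.37-fold difference (log2 1.25, SE 0.11, adjusted p = 1.17e-05). CXCL8, a second chemokine of the same family, was at 537 and 522 against 204 and 222 (log2 1.31, SE 0.16, adjusted p = 0.000238). IL1A, an alarm cytokine that acts through the interleukin-1 receptor, was at 872 and 798 against 275 and 328 (log2 1.47, SE 0.19, adjusted p = 0.000367). CCL20, which draws CCR6-bearing lymphocytes and dendritic cells, was at 88.2 and 89.7 against 13.9 and 18.1 (log2 2.42, SE 0.22, adjusted p = 1.49e-05); its level was under 100. In all 4 genes the clones did not overlap, as in all 145 called genes and in 40.8% of all genes tested.

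These 4 were the called members among 23 cytokines and chemokines tested, where 0.576% of all genes were called higher in Rescue1. None was called higher in Rescue2 by limma. The median difference over the 23 was 0.41, with 17 positive, beside a median of 0.00 over all genes tested. IL6, a pleiotropic inflammatory cytokine, stood at 1382 and 1287 against 642 and 887 and was not called (log2 0.82, adjusted p = 0.074). CXCL12 was at 333 and 324 against 551 and 633 (adjusted p = 0.746). All 4 called genes were also higher in KO2 than in WT in the same 2% serum, and both rescue clones lay below KO2 in all 4. CXCL1, for example, was at 73071 and 58364 in KO2 and at 5689 and 4502 in WT. Against the eGFP line in 10% serum the order varied. CXCL8 was at 4817 and 4353 there, CXCL1 at 25908 and 24616, both above the clones, CCL20 at 247 and 246, above them too, while IL1A was at 626 and 581, between them.

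The 150 bases upstream of the start of these 4 genes are shown because they were the called members of the cytokine list and because chemokine promoters are classical targets of NF-κB. They are RefSeq sequences on GRCh38.p14, 5′ to 3′ on the gene's strand, with matches to the κB motif on either strand in capitals.
CXCL1, chr4:73869243-73869392, plus strand: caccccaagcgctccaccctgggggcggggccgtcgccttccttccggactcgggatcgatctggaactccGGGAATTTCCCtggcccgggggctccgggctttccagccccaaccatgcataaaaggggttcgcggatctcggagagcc
CXCL8, chr4:73740419-73740568, plus strand: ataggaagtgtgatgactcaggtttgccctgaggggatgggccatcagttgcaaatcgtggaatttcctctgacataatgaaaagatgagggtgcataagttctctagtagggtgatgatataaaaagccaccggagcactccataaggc
CCL20, chr2:227813692-227813841, plus strand: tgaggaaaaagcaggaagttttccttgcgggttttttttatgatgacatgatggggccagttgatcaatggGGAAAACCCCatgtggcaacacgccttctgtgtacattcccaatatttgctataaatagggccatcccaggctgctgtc
IL1A, chr2:112784494-112784643, minus strand: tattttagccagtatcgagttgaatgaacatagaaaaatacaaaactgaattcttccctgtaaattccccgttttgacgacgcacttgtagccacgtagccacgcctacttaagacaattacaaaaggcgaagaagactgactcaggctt
Matches to the κB motif stood in CXCL1, at 79 to 69 bases before the start on both strands together, and in CCL20, at 79 to 70 bases before it on the opposite strand. Of the promoters of 10430 tested genes, 5.86% held it within 250 bases upstream. Of the 145 called genes 100 had a promoter in the table, and 5 of 65 higher in Rescue1 and 1 of 35 higher in Rescue2 held it. The AP-1 motif TGANTCA, which reads alike on both strands, matched in CXCL8 at 137 to 131 bases and in IL1A at 12 to 6 bases before the start, and 3.92% of the tested promoters held it, against 7 of the 65 and 2 of the 35. CXCL8 and IL1A have no match to the κB letters as searched, which says nothing of whether the factor binds there.

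IRAK3, a kinase-like brake on Toll-like and interleukin-1 receptor signalling, was at 0 and 3.10 in Rescue1 and at 305 and 258 in Rescue2 (log2 -7.12, SE 0.69, adjusted p = 2.73e-05, a size that depends on the pseudocount at such low levels). It was at 1570 and 1847 in KO2 and at 7.41 and 1.66 in WT, so Rescue2 held an intermediate level and Rescue1 stood at the WT end. Of 19 NF-κB feedback genes tested, none was called by limma in either direction (4 at an unadjusted p under 0.05), and of 30 interferon-stimulated genes none was called (4). The medians were 0.10 and -0.16. NFKBIZ, an inducible IκB protein, and TNFAIP2, both named after their values were seen, passed the adjusted p without the fold. NFKBIZ was at 6611 and 6399 in Rescue1 and at 3889 and 3825 in Rescue2 (log2 0.75, adjusted p = 1.49e-05), and TNFAIP2 was at 3147 and 3522 against 4502 and 4306 (log2 -0.40, adjusted p = 0.0121). Among the 22 genes of antigen presentation and complement, CD74, the invariant chain of MHC class II, was the only call: it was listed at 0 in both Rescue1 libraries and at 61.8 and 35.2 in Rescue2 (adjusted p = 2.82e-08). Every other library of the series had more CD74 than Rescue1.

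Called matrix genes went in both directions. COL6A3, the alpha-3 chain of the microfibril collagen VI (chromosome 2, 237324003 to 237414328, minus strand), was at 469 and 443 in Rescue1 and at 16213 and 14800 in Rescue2, which was 33.9-fold higher in Rescue2 (log2 -5.08, SE 0.23, adjusted p = 2.82e-08). KO2 held 6441 and 6274, KO1 90.4 and 98.6, WT 18.4 and 18.0, and the eGFP line 110 and 116. Rescue2 exceeded all 20 other libraries. The collagen list leaves out COL25A1, a called gene given below. COL6A3 was 1 of 2 calls among the 24 collagens tested in that list, where 0.994% of all genes were called, and the median of the list was -0.06. The other, COL4A4 of basement membrane collagen IV, was low in both clones, at 13.2 and 6.58 in Rescue1 and at 0.881 and 3.23 in Rescue2, against 745 and 815 in KO2, and its adjusted p was over 0.05 in 4 of 15 alternatives besides the fit of the 4 rescue libraries.

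THBS2, a matricellular protein that limits vessel growth, was higher in Rescue1 (2072 and 1869 against 463 and 527, log2 1.99, SE 0.22, adjusted p = 9.48e-05). It was highest in Rescue1 of all groups: KO2 stood at 491 and 387, and WT at 7.46 and 7.70. LOX, which cross-links collagen, was at 880 and 986 in Rescue1 and at 429 and 400 in Rescue2 (log2 1.17, adjusted p = 0.000242). SMOC1, a calcium-binding matrix protein that modulates BMP signalling, was at 1266 and 1066 against 128 and 126 (log2 3.18, SE 0.25, adjusted p = 3.83e-06). TIMP3, an inhibitor of metalloproteinases, was at 9.33 and 17.3 in Rescue1 and listed at 0 in both Rescue2 libraries, a low level in shallow libraries. Its call is lost without the second Rescue1 library or without either Rescue2 library. THBS2 and TIMP3 were the 2 calls among 21 matrix remodelling genes, where 0.994% of all genes were called. Of these 21, 11 had an unadjusted p under 0.05, against 10.5% of all genes tested. PLAT and LOXL2, higher in Rescue1 (log2 0.97 and 0.31), and SERPINE2, higher in Rescue2 (log2 -0.89), passed the adjusted p alone. They were named after their values were seen. VCAN, a large proteoglycan named after its values were seen, passed the adjusted p without the fold and was higher in Rescue1 (log2 0.26, adjusted p = 0.0072). None of 26 integrins and laminins was called by limma, with 3 at an unadjusted p under 0.05.

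WNT ligands differed in opposite directions. WNT2, an activator of β-catenin signalling, was at 615 and 681 in Rescue1 and at 42.2 and 55.8 in Rescue2 (13.1-fold, log2 3.71, SE 0.38, adjusted p = 4.37e-05). It was listed at 0 in both WT libraries and was at 3191 and 2595 in KO2. WNT7A, a ligand of epithelia, was at 30.4 and 27.0 in Rescue1 and at 661 and 543 in Rescue2 (20.3-fold, log2 -4.34, SE 0.25, adjusted p = 1.35e-07). WT held 810 and 812 of it, and KO2 80.7 and 80.5. For both ligands Rescue2 was the clone nearer to WT and to the eGFP line. RNF43, a membrane ubiquitin ligase that removes WNT receptors, was at 27.8 and 9.49 in Rescue1 and listed at 0 in Rescue2. These 3 were the calls among 28 WNT pathway genes, where 0.994% of all genes were called, and the median of the list was -0.02. WNT5A, at 1171 and 1245 against 1309 and 1023, was not called.

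Growth factor genes gave 3 calls of 34, where 0.994% of all genes were called. IGF2, the fetal insulin-like growth factor, was at 308 and 241 in Rescue1 and at 2054 and 2189 in Rescue2 (log2 -2.96, SE 0.40, adjusted p = 0.000647). KO2 held 2809 and 2597, and untransduced WT in 2% serum held 0 and 0.799. The serum-matched eGFP line held 4508 and 4291, above both clones. IGF1R, the receptor that binds it, was higher in Rescue1 (1669 and 2302 against 1025 and 768, log2 1.14, adjusted p = 0.00205), so ligand and receptor differed in opposite directions. Without the second library of either clone the IGF1R log2 difference fell under the 1 that a call asks for. ERBB3, a receptor for neuregulins, was at 36.9 and 56.9 against 10.2 and 6.95 (adjusted p = 0.0121), and its adjusted p was over 0.05 in 3 of 15 alternatives besides the fit of the 4 rescue libraries. PGF, a ligand of the VEGF family named after its values were seen, was at 1.57 and 0 in Rescue1 and at 30.1 and 24.7 in Rescue2. No gene of the 27 TGF-β pathway genes tested was called by limma, with 6 at an unadjusted p under 0.05, 23 with a positive difference and a median of 0.27. LTBP4, which stores latent TGF-β in the matrix and is named after its value was seen, passed the adjusted p alone (log2 0.58, adjusted p = 0.00539).

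**Figure D3:**
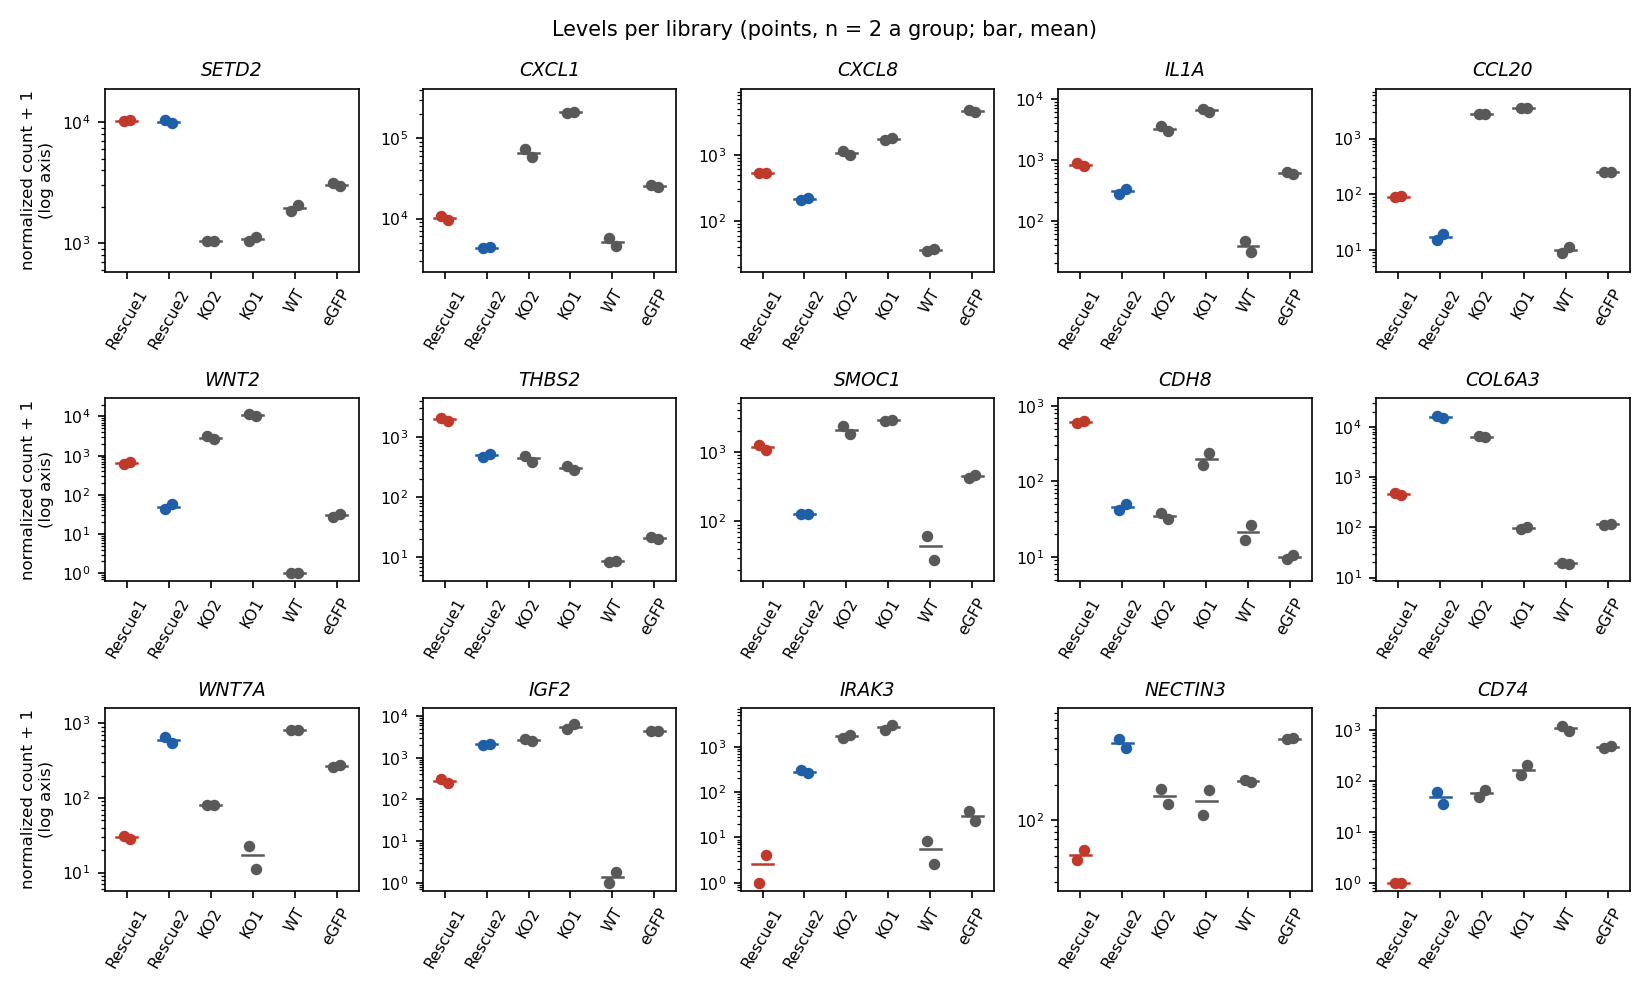
Normalized count + 1 on a log axis (y axis) of 15 genes in each library of Rescue1, Rescue2, KO2, KO1, WT and eGFP (x axis), with points for the 2 libraries and a bar for their mean. SETD2 is level between the rescue clones, the cytokines and WNT2 are higher in Rescue1, and COL6A3, WNT7A, IGF2, IRAK3, NECTIN3 and CD74 are higher in Rescue2.

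DSC3, CDH8, NECTIN3 and CLDN2 encode adhesion or junction proteins and were not tested as a group. DSC3, a desmosomal cadherin of stratified epithelia, was at 704 and 653 in Rescue1 and at 7.45 and 1.72 in Rescue2 (log2 7.15, SE 1.51, adjusted p = 0.0246). The Rescue1 libraries lay above all 20 others, but the gene was scattered between replicates elsewhere (0 and 43.2 in KO2), and the call is lost when any 1 of the 4 libraries is left out. CDH8, a type II cadherin known from neurons, was steadier, at 597 and 636 against 41.3 and 49.2 (log2 3.74, SE 0.34, adjusted p = 1.34e-05), also above all 20 other libraries. NECTIN3, an immunoglobulin-like adhesion molecule, went the other way, at 44.8 and 55.2 against 487 and 410 (log2 -3.14, SE 0.35, adjusted p = 0.000109). CLDN2, which forms the cation-leaky tight junctions of the proximal tubule, was higher in Rescue1 (174 and 177 against 61.5 and 49.3, log2 1.66, adjusted p = 0.00385) and was the 1 call among 24 epithelial genes, lost without the second Rescue2 library. EPCAM, an epithelial surface molecule named after its values were seen, passed the adjusted p alone (438 and 447 against 688 and 691, log2 -0.64, adjusted p = 0.00796).

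Of 27 mesenchymal genes, LOX was the only call. VIM and CD44 were not called, with CD44 at 12484 and 12602 against 12623 and 12564. SNAI2, a repressor of epithelial genes, was at 175 and 164 against 107 and 118 (adjusted p = 0.712), and MMP2, a gelatinase, at 8227 and 7980 against 5268 and 5847 (adjusted p = 0.794). CDH2, or N-cadherin, named after its values were seen, was listed at 0 in both Rescue1 libraries and at 99.6 and 330 in Rescue2 (adjusted p = 0.43). Among 23 tested genes of a list drawn from the study's text and supplements, which is not complete, 2 were called, WNT2 and TIMP3, and both were higher in Rescue1, as were 0.576% of all genes. Among 37 tested secreted factors that the study selected on these same samples, 5 were higher in Rescue1 (CXCL1, CXCL8, CCL20, IL1A and WNT2) and 1 was higher in Rescue2 (IGF2), where 0.994% of all genes were called. All 6 are counted above in the cytokine, WNT or growth factor lists.

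KCNJ16, FXYD2 and FOLR1, genes with known roles in renal tubules, were called higher in Rescue2, and SGK1 was called higher in Rescue1. They were not tested as a group. KCNJ16, an inward-rectifier potassium channel subunit of renal tubules, was at 768 and 864 in Rescue1 and at 1753 and 1544 in Rescue2 (log2 -1.01, SE 0.10, adjusted p = 2.84e-05), and Rescue1 lay below all 20 other libraries. Without the first library of either clone the size of the KCNJ16 log2 difference fell under the 1 that a call asks for. FXYD2, the gamma subunit of the sodium pump, was at 46.8 and 63.3 against 266 and 334 (log2 -2.43, SE 0.31, adjusted p = 0.000367), with WT at 1263 and 2101. FOLR1, the folate receptor, was listed at 0 in Rescue1 and was at 2.58 and 12.2 in Rescue2, a trace beside the WT mean of 1562, and it was the 1 call of 24 proximal tubule genes, with an adjusted p over 0.05 with a pseudocount of 5 and on the deposited scale. SPP1, or osteopontin, named after its values were seen, passed the adjusted p alone and was higher in Rescue2, with means of 1328 and 2457 (log2 -0.89, adjusted p = 3.82e-06). SGK1, the serum- and glucocorticoid-regulated kinase that acts on sodium channels, was higher in Rescue1 (4236 and 4366 against 1898 and 1953, log2 1.16, SE 0.14, adjusted p = 0.000267).

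The other abundant calls were GPRC5A, an orphan receptor induced by retinoic acid, at 2909 and 2893 in Rescue1 against 1156 and 1066 (log2 1.38, adjusted p = 0.000967), and LIMCH1, an activator of non-muscle myosin, at 6446 and 6220 against 2991 and 3085 (log2 1.06, adjusted p = 1.11e-05). In the other direction they were NAV2, a neuron navigator gene at 245 and 297 against 1040 and 718 (adjusted p = 0.04999, its call lost when any 1 of the 4 libraries is left out), and KLHDC7A at 304 and 271 against 619 and 629 (adjusted p = 0.00385). TPM2, a tropomyosin, was the 1 call of 21 contractile and YAP target genes, with a mean of 69.2 in Rescue1 and of 168 in Rescue2 (log2 -1.27, adjusted p = 0.000464 and 0.151 on the deposited scale), both well under KO2 (641 and 582).

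The remaining genes with the largest differences had varied roles. Higher in Rescue1 were FAM163A (300 and 277 against 2.66 and 4.02, adjusted p = 6.67e-05), the orphan receptor GPR173 (128 and 113 against 5.34 and 5.49, adjusted p = 1.02e-07), the transcription factor SIM1 (240 and 223 against 33.7 and 29.4, adjusted p = 2.82e-08), the WNT and FGF receptor modulator SHISA2 (127 and 110 against 18.7 and 12.5, adjusted p = 1.64e-06), the glutathione transferase GSTM3 (291 and 321 against 16.3 and 7.86, adjusted p = 0.00102), the sodium channel SCN8A, the transmembrane collagen COL25A1 and the O-glycosylation enzyme GALNT2. GALNT2 stood at 299 and 193 against 23.3 and 22.4. GALNT2 lost its call without any 1 of the 4 libraries, SCN8A without the first library of either clone, and COL25A1 without the second Rescue2 library. Higher in Rescue2 were KLHL14 (21.0 and 28.1 against 154 and 136, adjusted p = 0.000119), the palmitoyltransferase ZDHHC4 (105 and 81.4 against 370 and 457, adjusted p = 1.23e-06), PTPRN2, KIAA0753 and the unnamed gene ENSG00000284969, of which each of the last 3 lost its call without the first Rescue2 library. PTPRN2 and KIAA0753 lost it without the second Rescue1 library too, and PTPRN2 without the second Rescue2 library. For SHISA2, SIM1 and GPR173, KO2 lay above both clones, and for ZDHHC4 Rescue1 was the clone outside the range of the other 20 libraries. SEMA6A, an axon guidance semaphorin, was at 41.2 and 15.4 in Rescue1 and at 4.52 and 6.46 in Rescue2 (adjusted p = 0.0295), and was the 1 call of 36 axon guidance genes. Its adjusted p was over 0.05 in 6 of 15 alternatives besides the fit of the 4 rescue libraries.

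Growth and chromatin genes gave no call by limma in either direction. These were 29 mitosis genes (0 at an unadjusted p under 0.05), 31 DNA replication genes (1), 24 CDK inhibitors and p53 targets (4), 34 H3K36 and chromatin genes (3) and 27 HOX genes (1). Their medians lay between -0.23 (DNA replication) and 0.03 (H3K36 and chromatin). No call was made either among 24 nephron lineage factors (8 at an unadjusted p under 0.05, where 10.5% of all genes tested were), 17 BMP and activin genes (2), 20 Notch and Hedgehog genes (3), 25 immediate early genes (3), 27 cholesterol genes (2), 32 glycolysis and hypoxia genes (4) or 26 NRF2 and ER stress genes (3), nor among the tested markers of other cell types, which were 5 endothelial (2, median 2.1), 3 immune (1, median -1.18), 3 distal nephron and podocyte (0) and 3 muscle and pericyte genes (0). Across all 33 lists, 20 held no called gene. With 0.994% of all genes called, no call in a list of this size is near the background.

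**Figure D4:**
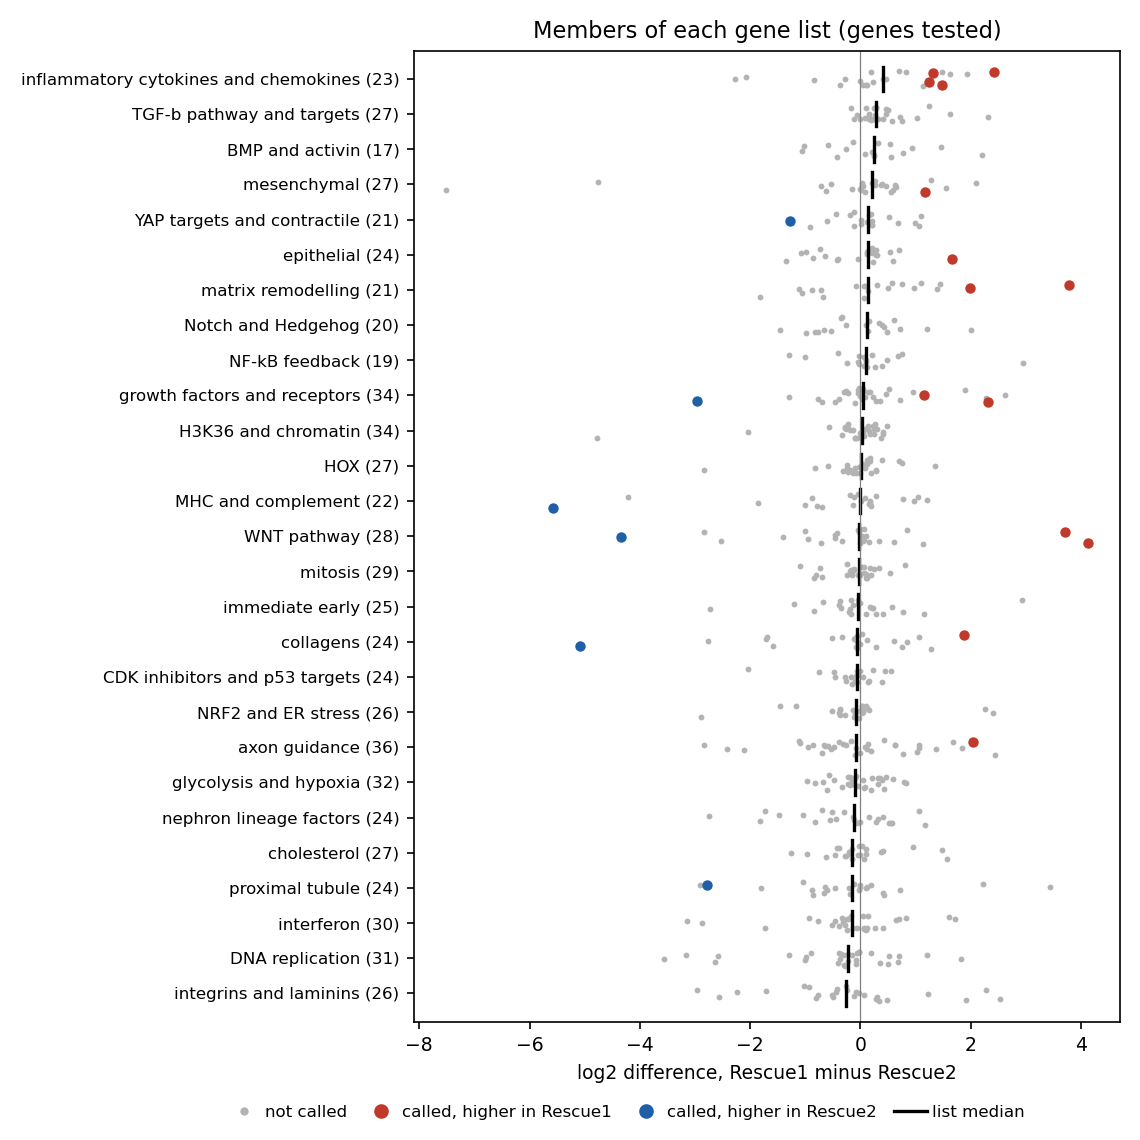
Log2 difference (x axis, Rescue1 minus Rescue2) of each tested member of 27 gene lists (y axis, with the number tested), called genes in red or blue and the list median as a black bar. Of these 27, the cytokine and chemokine list has the highest median (0.41) and 4 calls to the right, and the integrin and laminin list has the lowest median (-0.26) and no call.

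The clone differences did not run in 1 direction with respect to the knockout. Of the 145 called genes, 75 (51.7%) were also called between KO2 and WT, where 16.3% of all genes were called, and these 75 were 3.15% of the 2378 genes of that comparison. Both comparisons use the same estimate of spread per gene, so a gene steady between replicates is called more readily in each. How much of the overlap this gives was not tested. Genes above WT in KO2 were found on both sides, with 23 higher in Rescue1 and 18 higher in Rescue2, and so were genes below WT in KO2, with 21 and 13. Rescue1 was the clone nearer to KO2 in 66 of the 145 genes and Rescue2 in 79, while Rescue1 was nearer in 47.9% of all genes tested. For KO1 the counts lay the other way, with Rescue1 nearer in 88 and Rescue2 in 57, against 49.7% of all genes tested with Rescue1 nearer. The count against KO2 is near the share over all genes tested, so it marks neither clone as the nearer one to KO2. Where Rescue1 was higher it was nearer to KO2 in 58 of 84 genes, and where Rescue2 was higher it was nearer to KO2 in 53 of 61. Against KO1 the counts were 58 of 84 and 31 of 61. Against the serum-matched eGFP line they were 54 of 84 and 51 of 61, and against WT 50 of 84 and 41 of 61. The matching shares over all tested genes higher in each clone were not computed. These counts are therefore not read as a trait of the called genes.

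Against KO2 itself, which differs from both clones in serum, 2351 genes were called in Rescue1 (16.1%) and 2226 in Rescue2 (15.3%). These comparisons share the KO2 libraries. Of the 145 genes, 40 were called against KO2 in the same direction in both clones, 51 in Rescue1 alone, 39 in Rescue2 alone and 7 in neither. The remaining 8, among them COL6A3 and WNT7A, were called in opposite directions.

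Some clone differences lay outside the whole series. Of the called genes, both Rescue1 libraries exceeded all 20 other libraries in 14 and fell under all of them in 19, and both Rescue2 libraries did so in 7 and 30. Over all 14585 genes tested the counts were 275, 221, 226 and 226. MAGEA4, a cancer-testis antigen gene on the X chromosome, is named here after its values were seen: it was at 82.7 and 110 in Rescue1 and listed at 0 in all other libraries. EMC10, a subunit of the membrane protein insertase of the endoplasmic reticulum, also chosen after its values were seen, was at 4.04 and 3.55 in Rescue1 and at 66.5 and 37.4 in Rescue2, against 3603 and 3226 in WT, and its low values may be unsteady like those of EEF2.

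The 2 knockout clones offered a second pair to set beside the rescue clones. Of the 145 genes, 51 (35.2%) were also called between KO1 and KO2, where 6.97% of all genes were called. These 51 were 5.02% of the 1016 called there, beside 0.994% of all genes called between the rescue clones. Here too both comparisons use the same estimate of spread per gene, and its part in the overlap was not tested. In those 1016 genes, Rescue1 was nearer to KO2 than to KO1 in 739 (72.7%) and Rescue2 in 770 (75.8%). WT was nearer to KO2 in 764 (75.2%) and the eGFP line in 786 (77.4%), so this is not particular to the rescue clones. The 51 include COL6A3, at 6441 and 6274 in KO2 and 90.4 and 98.6 in KO1.

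Called genes were spread over the genome. Each of the 23 chromosomes examined held at least 1 called gene and none more than 13. Chromosome medians of the log2 difference lay between -0.03 and 0.03. Over 153 windows of 20 Mb with at least 20 genes, window medians had an SD of 0.0505, against 0.143 for KO1 minus KO2 over the same windows. The lowest, -0.24 on chromosome 8 between 120 and 140 Mb (44 genes, none called), was -0.08 when the second Rescue1 library was left out. Of 11 pairs of next called genes within 1 Mb of each other, 7 had the same direction, among them CXCL8 and CXCL1, which are 125677 bases apart. PCDHGA2 and PCDHGB7 share their last exons, and RGPD6 has near-identical copies, so their counts are uncertain.

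**Figure D5:**
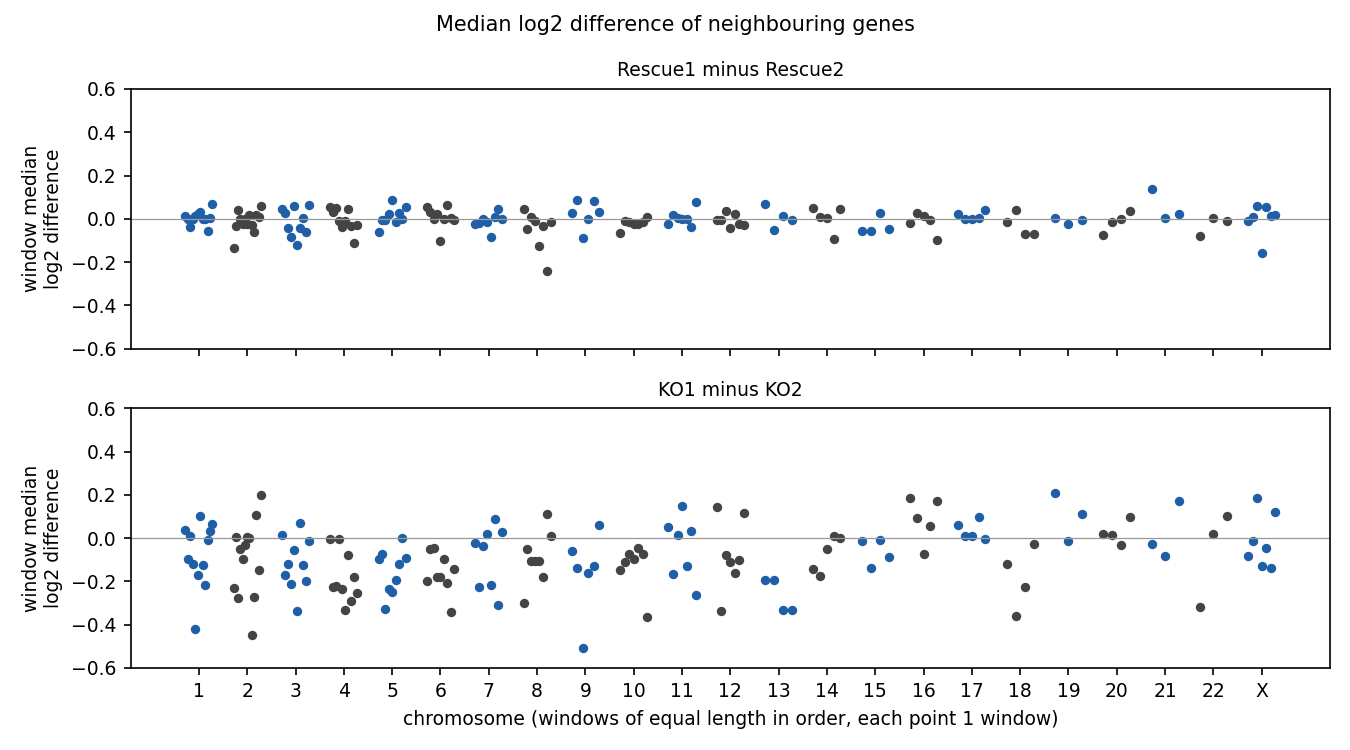
Median log2 difference of the genes in each 20 Mb window (y axis, 1 point per window with at least 20 tested genes), in order along each chromosome (x axis), for Rescue1 minus Rescue2 (top) and KO1 minus KO2 (bottom) on the same scale. The rescue clones' windows stay near 0 (SD 0.0505) and spread less than those of the knockout clones (SD 0.143).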

How the data were processed

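The authors quantified reads with Salmon (1.9.0) against Ensembl release 94 transcripts and normalized them with DESeq2 (1.26.0). The table deposited by the authors holds log2 values for 36859 genes in 22 libraries, all columns matched to a sample. All libraries share the lowest value, 11.3, and the values follow the shape of a variance-stabilizing transformation. They were back-transformed to normalized counts on that reading, which the sources used here do not state. Whole reads could not be recovered, so no count model was used. Depth was estimated from the steps between low values. Fold changes are on the log2(value + 1) scale, which understates the change of low genes.

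limma (3.58.1, R 4.3.3, variance trend, Benjamini-Hochberg) was fitted to log2(value + 1) in all 22 libraries with a mean per group, for 14585 genes with at least 10 in 2 or more libraries. A gene was called at an adjusted p under 0.05 and a log2 difference over 1. The script was checked on simulated data. Positions and gene types are from GENCODE 44, which holds 33878 of the genes.

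Genes named are SETD2, the 12 protein-coding genes with the largest called difference in each direction (clones not overlapping, mean of at least 100 in the higher clone), the 5 most abundant called genes in each direction, called members of 33 gene lists with a mean of at least 100 in the higher clone and genes of a list drawn from the study. Called list members under 100 were named after their values were seen, to complete the counts. Some genes that the rule names are not reported here. Other genes outside this rule, markers and genes of every cell apart, were chosen after their values were seen. The comparison, lists and rule were chosen with earlier results of these data known. Alternatives varied the pseudocount, filter, normalization, libraries, replicate block, length and GC trend, scale and threshold.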

Additional observations from a re-analysis of the deposited data

Results flagged for a closer look

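Genes were singled out where both clones were called against KO2 but in opposite directions, and the difference between the clones was itself called. There were 8. Higher in Rescue2, and lower than KO2 in Rescue1, were COL6A3 (log2 Rescue1 minus Rescue2 of -5.08), WNT7A (-4.34), PGF (-4.14), NECTIN3 (-3.14) and FXYD2 (-2.43). Higher in Rescue1, and lower than KO2 in Rescue2, were ZNF542P (7.58), CYP27C1 (4.46) and GNGT1 (2.91). For WNT7A, KO2 lay between the clones, with a difference from KO2 of -1.46 in Rescue1 and of 2.88 in Rescue2. For COL6A3 these were -3.80 and 1.28. ZNF542P, a zinc finger pseudogene, was listed at 0 in both Rescue2 libraries and was at 231 and 157 in Rescue1, so its fitted difference depends on the pseudocount and gives no fold. PGF and GNGT1 passed the threshold against KO2 narrowly, with adjusted p of 0.0249 and 0.0404 for PGF and of 0.0477 and 0.0174 for GNGT1 in limma, in Rescue1 and Rescue2.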

How the results depend on the processing

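The count of 145 called genes (84 higher in Rescue1, 61 in Rescue2) changed with several choices. The 4 rescue libraries alone gave 1 (0 and 1), with 2 residual degrees of freedom, and 49 of the 50 named called genes then had an adjusted p over 0.05. The deposited log2 values gave 1 (0 and 1). Keeping the fold but not adjusting p gave 747 (346 and 401), and an adjusted p without a fold gave 222 (129 and 93). Leaving out 1 library gave 98 to 146 calls, 59 to 72 higher in Rescue1 and 38 to 87 higher in Rescue2, with more in Rescue2 when either Rescue1 library was left out, the lowest without the first Rescue2 library, and 81 to 92 of the 145 remained called; a clone then has 1 library, assumed to vary like the other groups. No called gene changed direction under any of the 16 alternative fits in which it was tested. The clones did not overlap in any of the 145, so leaving out a library could not reverse a direction. The median of the cytokine list was 0.31 to 0.63 over the left-out libraries. The chromosome 8 window was at 0 without a filter and at -0.21 to -0.080 over the left-out libraries. The SETD2 difference turned to -0.011 with equal totals and ranged from -0.020 (without the second Rescue2 library) to 0.078 over the left-out libraries. The cause of these moves was not tested. The 12 libraries in 10% serum gave 174 calls, 118 of them shared.

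With the replicate number as a block, 140 genes were called, 136 of them among the 145. The deviations of same-numbered libraries correlated at 0.0840 between the clones over 8276 genes, and the numbers are not stated to mark a shared batch, so the libraries were not treated as paired.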
